A study of Homo sapiens with 12 samples.

Results

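CDK18 and its closest relatives were followed by mRNA sequencing in NCI-H446 cells, an established line from a human small cell lung cancer. The 6 genes are the PCTAIRE kinases CDK16, CDK17 and CDK18, the PFTAIRE kinases CDK14 and CDK15, and CCNY, which encodes cyclin Y, a partner of several of them. They were taken by symbol from a table of 34886 genes, and all 6 were found. The family was chosen by the counts of CDK18 in these same CAPE and DMSO libraries, where its fold change was among the largest, and the other 5 were added as its relatives. Their differences between treatments are therefore described here without a p-value. The treated cells had spent 8 h with CAPE, the caffeic acid phenethyl ester of propolis, at 40 µM, and the control cells an equal volume of the solvent, dimethyl sulfoxide (DMSO). Each group had 3 mRNA libraries and 3 libraries of microRNA (miRNA), and whether these came from separate cultures is not stated, so the spread between them may be technical.

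PCTAIRE and PFTAIRE kinases belong to the cyclin-dependent kinases and are named after the letters of a helix that meets the cyclin. Unlike the kinases that drive the cell cycle, they are best known from differentiated cells such as neurons, and several of them are recruited to membranes and activated by the membrane-bound cyclin Y. CDK14 with cyclin Y phosphorylates the Wnt co-receptor LRP6, CDK16 acts in spermatogenesis and vesicle transport, and CDK18 has been linked to the signalling of stalled replication forks through the kinase ATR. The roles of CDK17 and CDK15 are less well known.

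The stretch of DNA around the annotated start of CDK18 is shown because CDK18 is the member with the large difference. It is taken from RefSeq (GRCh38.p14, plus strand, chr1:205504419-205504718) and runs from 250 bases before the start site to 50 bases from it on. Capitals mark the letters GGGCGG, the GC box that SP1-type factors bind.

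CDK18: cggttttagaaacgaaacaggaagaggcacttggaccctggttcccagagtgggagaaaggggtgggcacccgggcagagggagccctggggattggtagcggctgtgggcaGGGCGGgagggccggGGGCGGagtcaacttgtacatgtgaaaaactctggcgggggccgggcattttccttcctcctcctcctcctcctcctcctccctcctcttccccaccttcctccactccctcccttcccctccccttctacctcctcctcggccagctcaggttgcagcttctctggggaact

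The window held 2 GC boxes, at 138 and 123 bases before the start when matched on both strands, and 45% of the 35116 windows of this length in the reference held at least 1. It held no match to the AP-1 letters TGACTCA or TGAGTCA (4.95% of all windows), to the letters TGACG of the cAMP response element (24.6%), to the E-box CACGTG (7.26%) or to the hypoxia response cores ACGTG and GCGTG (48.4%), of which ACGTG lies within the E-box. The window was rich in C and T toward and past the start site. They made up 76% of its last 150 bases, against a median of 49.3% over all windows. As few as 0.185% of all windows, that of CDK18 included, had at least this share. Its longest uninterrupted run of TCC had 9 units, and 3 of the 35116 windows, its own included, had a run at least as long. The run was measured because it was seen in the sequence. In the 11 windows of the other 5 genes the share of C and T ran from 36.7% to 61.3%, and no run of TCC was longer than 2 units. All 6 genes had a window in the reference, several of them for more than 1 start.

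The mRNA libraries held 17569997 to 17993349 estimated counts with CAPE and 17770295 to 20917508 with DMSO. The library DMSO 3 stood apart. It had 16207 genes detected against 17864 to 18587 in the other 5 libraries, and set against the mean of DMSO 1 and DMSO 2 it was at least 2-fold higher in 2825 and at least 2-fold lower in 2902 of 13595 genes tested. Short transcripts were high and long ones low there, with medians of 1.01 and -1.02 on the log2 scale in the shortest and the longest of 10 equal classes of relative transcript length. Differences in mRNA are therefore given with and without DMSO 3. Markers of small cell lung cancer and neuroendocrine cells were near 0 in these libraries, since NEUROD1, POU2F3, INSM1, CHGA, SYP and NCAM1 together reached 0.617 to 0.934 TPM (transcripts scaled to a fixed total, a level per transcript length) with CAPE and 0.455 to 0.886 TPM with DMSO. Summed levels of 4 epithelial markers were 1126 to 1185 TPM with CAPE and 1292 to 2552 TPM with DMSO, nearly all from KRT8 and KRT18. The highest sum was that of DMSO 3. KRT8 had 1493 TPM there, against 867 and 826 TPM in DMSO 1 and DMSO 2, and KRT18 had 1058 TPM, against 454 and 464 TPM. EPCAM had 2.26 to 2.96 TPM with CAPE and 1.16 to 2.26 TPM with DMSO, and CDH1 had at most 0.194 TPM. Summed fibroblast markers were 46.9 to 55.7 TPM with CAPE and 12.96 to 46.6 TPM with DMSO, leukocyte markers 28.5 to 34.3 TPM and 23.9 to 26.0 TPM, and endothelial markers 1.10 to 3.46 TPM and 1.58 to 4.06 TPM. In each of these sums the lowest DMSO value was that of DMSO 3. The fibroblast markers did not move together. COL1A1 had a mean of 18.7 TPM with CAPE and 9.16 TPM in DMSO 1 and DMSO 2. DCN had 18.4 and 20.5 TPM, LUM 14.1 and 15.2 TPM, and COL1A2 was near 0. The leukocyte sum was nearly all CD68, and CD3E had 0 counts. What part other cell types have in the differences described here was not tested.

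CDK18 (chromosome 1, 205504669 to 205532790, GRCh38) rose about 9-fold with CAPE. It had 382, 385 and 373 estimated counts in the CAPE libraries, against 46, 40 and 26 in the DMSO libraries. Scaled to library size these were 20.2, 20.5 and 19.1 CPM (counts scaled to a fixed library total) with CAPE and 2.42, 2.09 and 1.78 CPM with DMSO. The groups lay far apart, and DMSO 3 was the lowest of the DMSO libraries. The means were 19.9 ± 0.739 CPM with CAPE and 2.10 ± 0.323 CPM with DMSO (SD, n = 3 each). The fitted fold was 9.44 with 6 libraries, a log2 fold change of 3.24 (SE 0.19), and 8.78 without DMSO 3, a log2 fold change of 3.13 (SE 0.13). It ranked 27 among the rises of 13595 genes tested and 56 among those of 13919 genes without DMSO 3. Exact 95% Poisson intervals of the counts reached from 336 to 425 across the CAPE libraries and from 17.0 to 61.4 across the DMSO libraries, and they cover counting error only. In bulk RNA a larger share of cells with CDK18 mRNA and more of it per cell cannot be told apart.

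**Figure D1:**
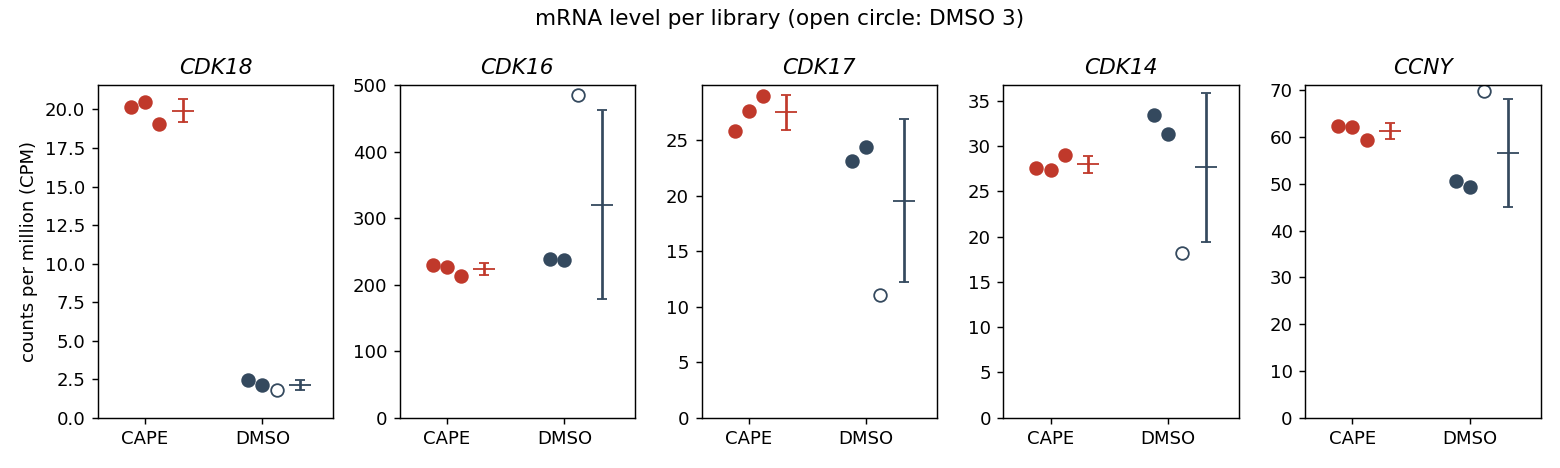
Level of each tested gene in CPM (vertical axes, from 0) in the CAPE and DMSO libraries; points are libraries, the open circle is DMSO 3, and bars beside the points are the mean ± SD of 3 libraries. CDK18 lies between 19.1 and 20.5 CPM with CAPE and between 1.78 and 2.42 CPM with DMSO, and in each of the 5 genes DMSO 3 lies outside the range of the other 5 libraries.

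CDK16 (chromosome X, 47218303 to 47229997), the most abundant of the PCTAIRE kinases in this line, showed no such difference. It had 230, 226 and 214 CPM with CAPE, against 239, 237 and 485 CPM with DMSO, the last in DMSO 3. All CAPE libraries lay below all DMSO libraries, but the nearest pair, 230 and 237 CPM, was close. The log2 fold change was -0.52 (SE 0.31) with 6 libraries and -0.10 (SE 0.04) without DMSO 3. On the TPM scale, which takes transcript length into account, CDK16 had 172 ± 6.27 TPM with CAPE and 174 ± 16.8 TPM with DMSO (SD, n = 3 each), and DMSO 3 was there the lowest library, at 154 TPM. The TPM difference by limma on log2(TPM + 1) was -0.01 on the log2 scale, where the median of all genes tested was 0.31.

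CDK17 (chromosome 12, 96278225 to 96400439), the third PCTAIRE kinase, had 25.8, 27.6 and 29.0 CPM with CAPE, against 23.1, 24.4 and 11.1 CPM with DMSO. The CAPE libraries were all higher, by little over DMSO 1 and DMSO 2. The log2 fold change was 0.49 (SE 0.31) with 6 libraries and 0.21 (SE 0.08) without DMSO 3. In TPM the groups overlapped, at 11.8, 16.7 and 14.2 TPM with CAPE and 11.9, 12.6 and 2.48 TPM with DMSO.

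CDK14 (chromosome 7, 90596321 to 91210590), the PFTAIRE kinase of Wnt signalling, had 27.6, 27.3 and 29.0 CPM with CAPE, against 33.4, 31.3 and 18.2 CPM with DMSO. The CAPE libraries lay between DMSO 3 and the other DMSO libraries. The sign of its log2 fold change turned with DMSO 3, being 0.02 (SE 0.25) with 6 libraries and -0.21 (SE 0.07) without it. In TPM it had 9.04 ± 0.369 with CAPE and 8.24 ± 4.90 with DMSO (SD, n = 3 each).

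CDK15 (chromosome 2, 201806429 to 201895550), the other PFTAIRE kinase, was not detected beyond 1 count. It had 0 counts in each CAPE library, against 1 count in DMSO 1 and 0 in DMSO 2 and DMSO 3. At this depth 0 counts in a CAPE library allow a level of up to 0.160 CPM, taken as 3 counts, and 0 counts in DMSO 3 allow up to 0.205 CPM. CDK15 was the 1 member that did not pass the filter on low counts, so 5 of the 6 were tested.

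CCNY (chromosome 10, 35247025 to 35572667) encodes the cyclin that recruits several of these kinases to the plasma membrane. It had 62.4, 62.2 and 59.4 CPM with CAPE, against 50.5, 49.3 and 69.9 CPM with DMSO. The CAPE libraries were above DMSO 1 and DMSO 2 and below DMSO 3. The log2 fold change was 0.12 (SE 0.18) with 6 libraries and 0.29 (SE 0.06) without DMSO 3. In TPM all CAPE libraries, at 28.8, 34.5 and 29.3 TPM, were above the DMSO libraries, at 24.4, 19.3 and 15.4 TPM, and limma on log2(TPM + 1) gave a log2 difference of 0.64, where the median of all genes tested was 0.31. Reads of CCNY may be shared with its close copies, which include CCNYL1 and CCNYL2, so its level is uncertain by that amount.

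**Figure D2:**
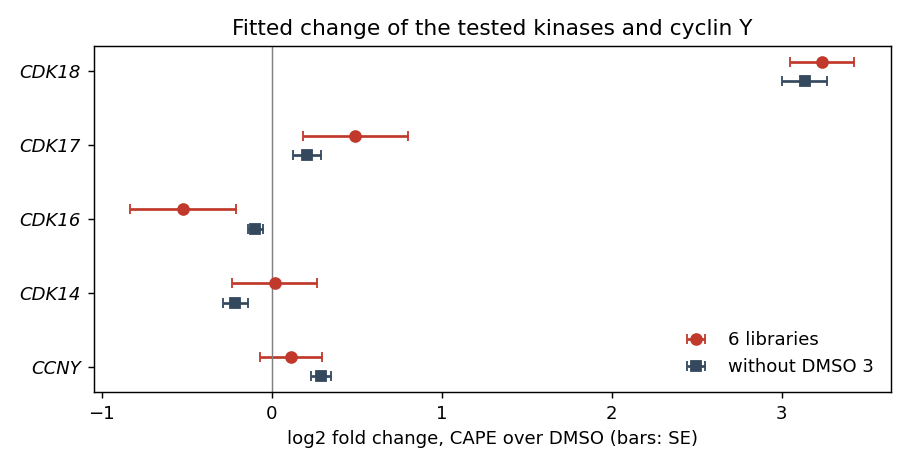
Log2 fold change of CAPE over DMSO (horizontal axis) for the 5 tested genes, fitted with 6 libraries (circles) and without DMSO 3 (squares); bars are standard errors. CDK18 stands at 3.24 and 3.13, while the other 4 genes lie between -0.52 and 0.49, and CDK14 changes sign.

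Of the 5 tested genes CDK18 was the 1 that passed an adjusted p of 0.05 in edgeR's quasi-likelihood fit over all 13595 genes, in which 1.95% of genes passed. It passed in 7 of 12 alternatives and did not in limma on log2(TPM + 0.1), with the replicate block, or without CAPE 1, CAPE 2 or CAPE 3, where its log2 fold change was 3.42, 3.25, 3.23, 3.23 and 3.27. Without DMSO 3, CDK18 and CCNY passed as higher, where 20.4% of 13919 genes did, and CDK14 passed as lower, where 20.8% did. With 6 libraries the CAPE values lay above all DMSO values in CPM for CDK18 and CDK17, as for 21.4% of genes tested, and below them for CDK16, as for 20.6%. Without DMSO 3 they lay above for CDK18, CDK17 and CCNY, as for 31.1%, and below for CDK16 and CDK14, as for 31.2%. Because the same contrast chose the family, nothing is read from these counts.

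The composition of the kinase family differed between the treatments. Per transcript, CDK18 made up 7.77%, 7.23% and 7.76% of the summed TPM of the 5 kinases with CAPE, against 0.832%, 1.21% and 0.382% with DMSO. CDK16 made up 82.5%, 80.6% and 81.0% with CAPE, against 87.8%, 87.8% and 96.4% with DMSO. CDK16 thus held most of the family's mRNA in every library. The summed TPM of the 5 kinases was 215, 215 and 204 with CAPE, against 208, 209 and 160 with DMSO, the last in DMSO 3. With CAPE the order of TPM levels was CDK16, CCNY at 30.8 ± 3.15, CDK18 at 16.0 ± 0.638, CDK17 at 14.2 ± 2.42 and CDK14 at 9.04 ± 0.369 (SD, n = 3). The values of CDK18, 15.5 to 16.7 TPM, overlapped those of CDK17. With DMSO the order was CDK16, CCNY at 19.7 ± 4.53, CDK17 at 9.01 ± 5.66, CDK14 at 8.24 ± 4.90 and CDK18 at 1.62 ± 0.963 (SD, n = 3), where CDK17 and CDK14 did not differ beyond their spread. CDK18 was thus the lowest of the detected kinases with DMSO and overlapped CDK17 with CAPE.

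The count of a gene divided by its TPM follows the mean length of the transcripts its reads were assigned to, and was set relative to the median gene of each library. For CDK18 it was 0.917, 1.01 and 0.923 with CAPE, against 1.06, 0.623 and 0.993 with DMSO, where DMSO 2 stood apart at a depth of 40 counts. The groups overlapped, and the log2 ratio of CAPE to DMSO 1 and DMSO 2 was 0.18, against a median absolute value of 0.06 and a 95th percentile of 0.40 over 13319 genes. For CDK16 it was 0.985, 1.004 and 0.990 with CAPE and 0.988, 0.972 and 1.07 with DMSO, for CDK17 1.27 to 1.66 and 1.46 to 1.52, and for CDK14 2.23 to 2.56 and 2.15 to 2.35. CCNY had 1.65, 1.38 and 1.55 with CAPE and 1.56, 1.92 and 1.55 with DMSO. No member's length differed between the groups without overlap. In DMSO 3 the deviation from DMSO 1 and DMSO 2 in log2 CPM was 1.03 for CDK16, 0.49 for CCNY, -0.33 for CDK18, -0.83 for CDK14 and -1.09 for CDK17. The medians of all genes in the same of the 10 length classes were 0.32 for CDK16 and CDK18, -0.41 for CCNY, -0.64 for CDK14 and -0.18 for CDK17.

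The other cyclin-dependent kinases give the setting in which CDK18 lies. Of 20 considered, 18 were tested, among them CDKL1 and CDKL3, which are cyclin-dependent kinase-like genes. With 6 libraries none passed in edgeR's fit, none had an unadjusted p under 0.05, and none passed in DESeq2 or in limma on log2 TPM. On simulated counts edgeR's 6-library fit recovered only 7 of 67 changes of 2-fold. Here and in the lists below, not passing in it does not show that a gene was unchanged. CDK11B, a kinase of transcription and splicing whose reads may be shared with its close copy CDK11A, was nearest (log2 fold change -0.44, edgeR adjusted p = 0.344, SE 0.21). Without DMSO 3, 1 rose and 5 fell, where 20.4% and 20.8% of all genes did, with a median log2 fold change of -0.14 against 0.00346 over all genes tested. CDK1, the mitotic kinase, fell by 0.66 on the log2 scale (edgeR adjusted p = 3.23e-07, SE 0.06; -0.45 with 6 libraries), with 86.6, 95.2 and 98.7 CPM with CAPE, against 144, 151 and 88.8 CPM with DMSO. CDK12, which phosphorylates RNA polymerase II, fell by 0.36 (edgeR adjusted p = 1.31e-04, SE 0.06; -0.10 with 6 libraries) and CDK10 by 0.32 (edgeR adjusted p = 0.00311, SE 0.07; -0.27 with 6 libraries). CDK19, a Mediator kinase, was the 1 that rose, by a log2 fold change of 0.32 (edgeR adjusted p = 0.00806, SE 0.08; 0.61 with 6 libraries). The values of these 18 kinases ran from -0.66 to 0.32 without DMSO 3, with CDK18 at 3.13.

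**Figure D3:**
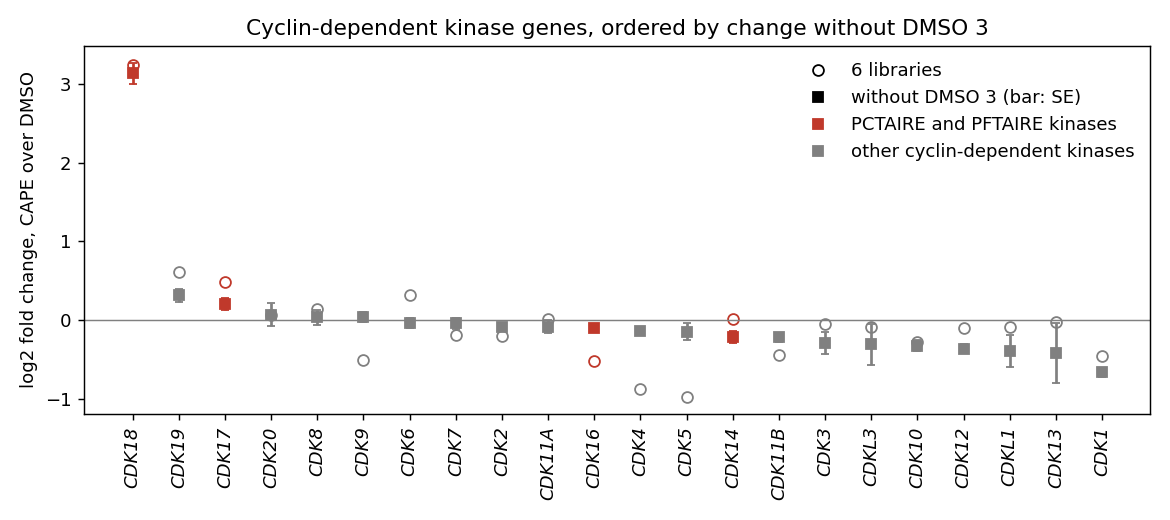
Log2 fold change of CAPE over DMSO (vertical axis) for 18 other cyclin-dependent kinase genes (grey) and the 4 tested PCTAIRE and PFTAIRE kinases (red), ordered by the fit without DMSO 3 (squares, bars are standard errors); open circles are the fit with 6 libraries. In the fit without DMSO 3, CDK18 stands at 3.13 and the others between -0.66 for CDK1 and 0.32 for CDK19. With 6 libraries the others reach from -0.98 for CDK5 to 0.61 for CDK19. The grey genes include the kinase-like CDKL1 and CDKL3.

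CCNA2 was the 1 partner cyclin that passed with 6 libraries. Of 7 tested partner cyclins and activators of the related kinase CDK5, 1 fell and none rose with 6 libraries, where 1.95% of all genes passed. The median log2 fold change was -0.81, against -0.01 over all genes. Without DMSO 3, 4 fell and 1 rose, where 20.8% and 20.4% of all genes did. With 6 libraries DESeq2 called 2 lower, where it called 327 of 15555 genes lower. The fit by limma on log2(TPM + 1) called none of the 7, 1 of them with an unadjusted p under 0.05. CCNA2, the S and G2 phase cyclin with which CDK18 can be activated, had 93.1, 104 and 93.6 CPM with CAPE, against 166, 184 and 187 CPM with DMSO, a log2 fold change of -0.89 (edgeR adjusted p = 0.0407, SE 0.14), and -0.86 without DMSO 3. CCND3, cyclin D3, which binds CDK14, had 126, 118 and 111 CPM with CAPE, against 177, 183 and 548 CPM with DMSO. It did not pass with 6 libraries (log2 fold change -1.35, edgeR adjusted p = 0.257) and fell by 0.61 in log2 terms in the fit without DMSO 3 (edgeR adjusted p = 4.60e-07, SE 0.05). CABLES1, an adaptor of CDK5, fell by 0.62 in the same fit (edgeR adjusted p = 8.56e-06, SE 0.07; -0.93 with 6 libraries), and CABLES2 rose by 0.37 (edgeR adjusted p = 0.0354, SE 0.13; 0.28 with 6 libraries). CCNYL1, the paralogue of cyclin Y, had 21.4, 22.5 and 21.0 CPM with CAPE, against 20.6, 17.96 and 19.8 CPM with DMSO, and passed in neither fit (edgeR adjusted p = 0.525, and 0.171 without DMSO 3).

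Among kinases and adaptors that act on the family, the AMPK list had the 1 gene that passed with 6 libraries. AMPK, the energy sensor of the cell, phosphorylates cyclin Y, and PRKAG2, a regulatory subunit of it, had 16.1, 16.9 and 16.8 CPM with CAPE, against 7.43, 8.20 and 7.60 CPM with DMSO. Its log2 fold change was 1.10 (edgeR adjusted p = 0.0256, SE 0.15), and 1.08 without DMSO 3. Of 8 tested genes of that list 1 rose and none fell with 6 libraries, and without DMSO 3 PRKAA2, a catalytic subunit, rose as well by 0.51 (edgeR adjusted p = 7.50e-06, SE 0.06; 0.83 with 6 libraries) while CAMKK2, an upstream kinase, fell by 0.23 (edgeR adjusted p = 0.00523, SE 0.06; -0.35 with 6 libraries). These 3 of 8 genes compare with 41.2% of all genes called in that fit, and the 1 of 8 with 1.95%. Protein kinase A phosphorylates PCTAIRE kinases and alters their activity. None of its 7 tested subunits and inhibitors passed in either fit, in DESeq2 or in limma, and 0 with 6 libraries and 1 without DMSO 3 had an unadjusted p under 0.05, which was PRKAR1A at -0.11 (edgeR adjusted p = 0.0868, SE 0.05; 0.10 with 6 libraries). PKIG, with the smallest p among 6 libraries, had a log2 fold change of -0.80 (edgeR adjusted p = 0.371, SE 0.48).

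The 14-3-3 proteins bind phosphorylated partners, CDK16 and cyclin Y among them. None of 7 tested passed with 6 libraries in edgeR, DESeq2 or limma, where 0 in edgeR and 2 in DESeq2 had an unadjusted p under 0.05, and YWHAZ was nearest in edgeR (log2 fold change -0.38, edgeR adjusted p = 0.316, SE 0.16). Without DMSO 3, 4 fell and 1 rose, where 20.8% and 20.4% of all genes did. YWHAE fell by 0.31 (edgeR adjusted p = 1.18e-05, SE 0.04; -0.63 with 6 libraries), YWHAZ by 0.29 (edgeR adjusted p = 7.59e-05, SE 0.04) and YWHAH by 0.21 (edgeR adjusted p = 0.00634, SE 0.05; -0.55 with 6 libraries). SFN rose by 0.24 (edgeR adjusted p = 0.00111, SE 0.05), with 102, 102 and 103 CPM with CAPE, against 86.8, 85.7 and 348 CPM with DMSO, so that its sign turned with DMSO 3 (-0.76 with 6 libraries). In this list the median log2 deviation of DMSO 3 was 0.80.

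In the Wnt receptor complex that CDK14 and cyclin Y act on, none of 11 tested genes passed with 6 libraries in edgeR, DESeq2 or limma, and 2 had an unadjusted p under 0.05 in edgeR. LRP5, a Wnt co-receptor, was nearest (-0.47, edgeR adjusted p = 0.281, SE 0.18). Without DMSO 3, 3 rose and 2 fell, a share of the list near the 41.2% of all genes called. CAPRIN2, a scaffold between cyclin Y and the co-receptor, rose by 0.54 (edgeR adjusted p = 1.42e-04, SE 0.09; 0.95 with 6 libraries), with 39.2, 41.8 and 40.5 CPM with CAPE, against 30.7, 24.9 and 7.12 CPM with DMSO. GSK3B, a kinase of the destruction complex, rose by 0.39 (edgeR adjusted p = 2.88e-05, SE 0.05; 0.62 with 6 libraries) and DVL3, a Dishevelled protein, by 0.13 (edgeR adjusted p = 0.0409, SE 0.05; 0.13 with 6 libraries). LRP5 fell by 0.32 (edgeR adjusted p = 1.59e-04, SE 0.05) and DVL1 by 0.25 (edgeR adjusted p = 0.00187, SE 0.05; -0.69 with 6 libraries).

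In ATR checkpoint signalling, to which CDK18 has been linked, none of 12 tested genes passed with 6 libraries in edgeR, DESeq2 or limma, and none had an unadjusted p under 0.05 in edgeR. HUS1, a subunit of the checkpoint clamp, was nearest (-0.51, edgeR adjusted p = 0.327, SE 0.23). Without DMSO 3, ATR itself fell by 0.42 on the log2 scale (edgeR adjusted p = 2.63e-05, SE 0.05; -0.05 with 6 libraries), with 62.2, 64.8 and 61.0 CPM with CAPE, against 82.1, 84.7 and 27.2 CPM with DMSO, and CLSPN, the adaptor claspin, rose by 0.24 (edgeR adjusted p = 0.00256, SE 0.05; 0.62 with 6 libraries). These were the 2 of 12 called, where 41.2% of all genes were. The list's median was -0.14 in that fit. Of 5 tested genes reported as substrates of these kinases, PRC1, a protein of the midzone of the spindle, fell with 6 libraries. It had 116, 107 and 123 CPM with CAPE, against 240, 239 and 264 CPM with DMSO (log2 fold change -1.10, edgeR adjusted p = 0.0256, SE 0.14, and -1.05 without DMSO 3). This was 1 of 5, where 1.95% of all genes passed, and without DMSO 3 all 5 passed, where 41.2% did. In that fit CDKN1B, a CDK inhibitor, fell by 0.84 (edgeR adjusted p = 1.41e-07, SE 0.07; -0.76 with 6 libraries), TAGLN2, an actin-binding protein, by 0.12 (edgeR adjusted p = 0.0213, SE 0.04; -1.03 with 6 libraries), and NSF, a factor of vesicle fusion, and PTK2, the focal adhesion kinase, rose by 0.22 and 0.17 (edgeR adjusted p = 0.00349 and 0.0187; 0.24 and 0.29 with 6 libraries). DESeq2 called 2 of the 5 lower with 6 libraries, where it called 327 of 15555 genes lower, and limma called none, with none at an unadjusted p under 0.05. The 6-library calls of CCNA2, PRKAG2 and PRC1 were each lost when any 1 library other than DMSO 3 was left out. Their log2 fold changes were then -0.94 to -0.87 for CCNA2, 1.06 to 1.14 for PRKAG2 and -1.15 to -1.03 for PRC1. The calls were lost as well in limma on log2(TPM + 1), at -0.54, 1.39 and -0.64, and on log2(TPM + 0.1), at -0.54, 1.54 and -0.64. With the replicate block they were also lost, at -0.89, 1.10 and -1.10. That of CCNA2 was lost without the filter on low counts too, at -0.91.

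No tested gene around CDK18 on chromosome 1 had a fold change near that of CDK18. Of 39 annotated genes that start within 500 kb of its start, 18 were in the mRNA table and 11 were tested. With 6 libraries none of the 11 passed in edgeR, where 2 had an unadjusted p under 0.05, and none passed in limma. In DESeq2 2 rose, as did 530 of 15555 genes. Without DMSO 3, 3 rose and 2 fell, where 41.2% of all genes passed. RAB7B, a small GTPase of endosomal transport that starts 472 kb downstream, had 3.49, 3.46 and 3.99 CPM with CAPE, against 1.79, 1.41 and 2.12 CPM with DMSO (log2 fold change 1.18 without DMSO 3, edgeR adjusted p = 6.29e-04, SE 0.22; 1.04 with 6 libraries). SLC41A1, a magnesium transporter at 284 kb, had 119, 113 and 111 CPM with CAPE, against 76.6, 73.2 and 53.8 CPM with DMSO (log2 fold change 0.60 without DMSO 3, edgeR adjusted p = 4.81e-07, SE 0.05; 0.75 with 6 libraries). ELK4, a transcription factor of the ETS family at 103 kb, rose by 0.14 in that fit (edgeR adjusted p = 0.0336; 0.46 with 6 libraries). NUCKS1, a chromatin protein at 208 kb, fell by 0.39 (edgeR adjusted p = 2.23e-06; -0.22 with 6 libraries) and RBBP5, a subunit of histone methyltransferases, fell by 0.24 (edgeR adjusted p = 0.00728; -0.05 with 6 libraries). The nearest genes of the table on either side were almost silent. LEMD1 had at most 2 counts in any library, and MFSD4A, a membrane transporter, had 5 to 9 counts with CAPE and 2 to 15 with DMSO.

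**Figure D4:**
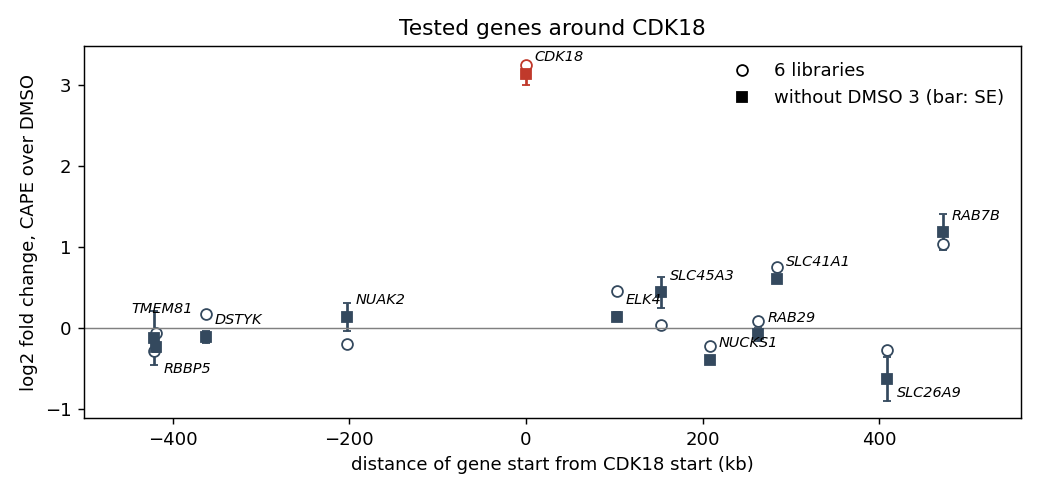
Log2 fold change of CAPE over DMSO (vertical axis) of CDK18 (red) and the 11 tested genes starting within 500 kb of it (dark), by distance of their start from that of CDK18 in kb (horizontal axis); open circles are 6 libraries and squares with standard errors the fit without DMSO 3. CDK18 stands at 3.24 and 3.13, and the highest neighbour, RAB7B, at 1.04 and 1.18.

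No miRNA of the reference lies inside any of the 6 genes, but MIR135B lies upstream of the start of CDK18, on the opposite strand, and its 5p arm starts 56.3 kb away. MIR135B lies within the span of LEMD1, which had at most 2 counts in any mRNA library. Its counts in the miRNA libraries played no part in the choice of the family, and they do not measure CDK18 itself. Its mature products are shown 5′ to 3′ as in RefSeq (GRCh38.p14, minus strand, chr1:205448361-205448383 and chr1:205448323-205448344), with the seed, bases 2 to 8, in capitals.

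hsa-miR-135b-5p: uAUGGCUUuucauuccuauguga

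hsa-miR-135b-3p: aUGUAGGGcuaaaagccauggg

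The seed of hsa-miR-135b-5p is shared with hsa-miR-135a-5p, which comes from other genes. hsa-miR-135b-5p was scarce, with 20, 19 and 16 counts with CAPE, against 29, 26 and 39 with DMSO, in libraries of 4637576 to 6134006 counts with CAPE and 7387387 to 8933025 with DMSO. Scaled, it had 3.63, 2.88 and 3.10 CPM with CAPE, against 4.42, 3.48 and 4.30 CPM with DMSO, and the groups overlapped. It did not pass (log2 fold change -0.35, edgeR adjusted p = 0.522, SE 0.28), where 11.8% of 527 miRNAs passed. The 3p arm had 1 to 7 counts in every library of either group and was not tested.

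The genes with the most similar pattern were found by the root-mean-square difference from CDK18 in log2 CPM centred on each gene's mean, over the 6 mRNA libraries, which had a median of 1.61 over all other genes tested. The 5 closest were RORA, a nuclear receptor (0.14), NIM1K, an AMPK-related kinase (0.21), IFIT2, an interferon-induced protein (0.21), ERRFI1, a feedback inhibitor of EGF receptors (0.22), and ADM2, a secreted peptide (0.23). RORA had 14.1, 11.9 and 12.2 CPM with CAPE, against 1.26, 1.41 and 0.958 CPM with DMSO, and DMSO 3 was its lowest library, as for CDK18. Its likeness held on the count scale, since in TPM it had 3.43 ± 0.914 with CAPE and 1.09 ± 0.788 with DMSO (SD, n = 3 each), a log2 ratio of 1.56. NIM1K had 14.5, 15.2 and 16.0 CPM with CAPE, against 1.37, 1.46 and 1.64 CPM with DMSO, with DMSO 3 as the highest of its DMSO libraries. In TPM its log2 ratio was 2.92, and that of CDK18 3.22.

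**Figure D5:**
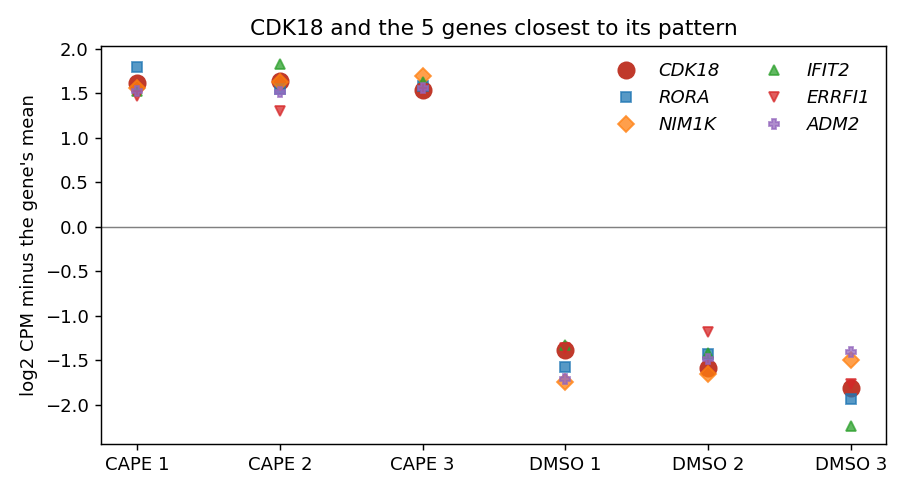
Log2 CPM minus the gene's mean (vertical axis) in each mRNA library (horizontal axis) for CDK18 (large red circles) and the 5 genes with the smallest root-mean-square difference from it. All 6 genes lie between 1.30 and 1.83 in the CAPE libraries and between -2.24 and -1.19 in the DMSO libraries, where they spread most in DMSO 3.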

How the data were processed

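Per the submitters' processing notes, reads were processed with bcl2fastq and kallisto 0.46.1 on GRCh38. The authors deposited estimated counts per gene symbol, whole numbers as deposited, and TPM per gene. How transcripts were summed to genes is not given in the sources used here. The authors deposited, for mature miRNAs, 2888 entries of raw counts, with no aligner or counter stated, and for a repeated name only the entry with most counts was used (2656 names). Counts were filtered with filterByExpr, scaled with TMM and compared by edgeR's quasi-likelihood test with Benjamini-Hochberg adjustment over all features (R 4.3.3, edgeR 4.0.16, threshold 0.05). The SE is the log2 fold change over the square root of F. Alternatives used DESeq2 1.42.0 and limma 3.58.1 on log2(TPM + 1) and log2(TPM + 0.1). Descriptive log2 ratios added 0.1. The test was checked on simulated counts. With 6 mRNA libraries it recovered 0 of 67 changes of 1.5-fold, 7 of 67 of 2-fold and 59 of 66 of 4-fold. Without DMSO 3 it recovered 49 of 67, 55 of 67 and 65 of 66. Genes that did not pass with 6 libraries may therefore have changed by 2-fold or less.

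The members and lists were chosen with earlier results of these data known. Named were all members, for each list up to 3 passing genes per direction, by p, or else the 1 with the lowest p, neighbours, and the 5 genes closest to CDK18, without anonymous genes. Some genes of the lists are not reported here and were left out of the list counts and sums. Names and coordinates are from RefSeq GRCh38.p14.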

Additional observations from a re-analysis of the deposited data

How the results depend on the processing

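The count of changed genes depended on DMSO 3 and on the tool. It was 265 with 6 libraries, 857 with DESeq2, 135 and 88 with limma on log2(TPM + 1) and log2(TPM + 0.1), and ran from 0 to 5731 when 1 mRNA library was left out (0 for CAPE 1 and for CAPE 3 by edgeR, with 1178 and 1099 genes at an unadjusted p under 0.05, 6 for CAPE 2, 9 for DMSO 1, 17 for DMSO 2 and 5731 for DMSO 3). For miRNA it was 62, and 17 to 128 when 1 library was left out (17 and 22 without CAPE 2 and CAPE 3, 30 without DMSO 1 and 128 without DMSO 3). With the replicate block edgeR called 0 mRNA genes (1384 with an unadjusted p under 0.05) and 63 miRNAs. Whether equal numbers mark paired samples could not be settled. Same-numbered mRNA libraries deviated with correlations of -0.19, 0.14 and -0.01 and miRNA libraries with 0.11, 0.01 and 0.12. Not every library correlated best with its own number. These values rest on 3 libraries per group, and in mRNA DMSO 3 stood apart, so they cannot exclude a pairing. CDK18 stayed between 2.77, in limma on log2(TPM + 1), and 3.42 under all alternatives. The TPM fits moved CCNY from 0.12 to 0.64 and 0.66, and shifted the median log2 fold change of all genes tested from -0.01 to 0.31 and 0.40. SFN, at -0.76, turned to 0.24 without DMSO 3 and ran down to -1.10 with other libraries left out. Over the single genes and miRNAs named, 545 values kept their side of the threshold or moved within the replicate spread, 52 lost a call and 33 gained one, 29 of these without DMSO 3. Members entered this tally by the size of their shift and not by their calls. It therefore leaves out the 5 alternatives in which CDK18 was not called, and the calls of CDK14 and CCNY without DMSO 3. The cause of these shifts was not tested. Depth limits CDK15 and the 3p arm of miR-135b.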
